A study of Mus musculus with 136 samples.

Results

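In mouse embryonic stem cells, 324 of 6298 WT SUZ12 peaks (5.14%) overlapped no H3K4me3 peak. SUZ12 belongs to the core of Polycomb repressive complex 2 (PRC2). The set was taken from the deposited ChIP-seq peak lists of WT clone 410: a SUZ12 peak entered it if it shared not a single base with any of 97213 H3K4me3 peaks of the original experiment. The members were thus selected on WT peak positions in these SUZ12 and H3K4me3 lists. The other 5974 SUZ12 peaks overlapped H3K4me3 and served as the set for comparison. Most of the 324 peaks were narrow and weak and lay next to a SUZ12 peak that did carry H3K4me3. A minority lay apart from such sites, and the strongest of these gathered at a few loci, among them Gm21188 and Gm36079 on chromosome 13 and 5S rRNA genes on chromosome 8.

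PRC2 methylates lysine 27 of histone H3, and the trimethylated form (H3K27me3) marks silent developmental genes. H3K4me3 marks gene starts, and in embryonic stem cells many CpG-rich starts of developmental genes carry both marks, a state called bivalent. H3K27ac marks active starts and enhancers, and H3K9me3 marks constitutive heterochromatin.

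SUZ12 was profiled in MCM2-2A clones 439 and 442, in which the part of the replicative helicase subunit MCM2 that binds histones is mutated, and in WT clone 410, all derived from the E14JU line (129/Ola) and grown untreated with serum and leukaemia inhibitory factor. Each genotype label stands for single clones, and the authors combined 3 replicates of a clone into 1 list, so no spread between replicates could be given and no genotype difference could be tested. H3K27me3, H3K27ac, H3K9me3 and H3K4me3 were profiled in WT clone 410 in the original experiment (2 replicates per list), and H3K27me3, H3K9me3 and H3K4me3 also in a later rescue experiment (3 replicates per list). SUZ12 was profiled in crosslinked, sonicated chromatin and the histone marks in native, MNase-digested chromatin. H3K4me3 and H3K27ac peaks lay at the starts of 10 of 10 pluripotency markers, including Pou5f1, Nanog and Esrrb. The same was so for 1 of 6 fibroblast markers (Thy1), 2 of 3 neuronal, 1 of 3 endodermal and 2 of 3 trophoblast markers. The share over all genes was not computed, so this is a weak check of the embryonic stem cell label. In bulk chromatin, a peak carried by few cells and a weak peak carried by all cells cannot be told apart. All intervals below are 95% Wilson intervals over peaks and cover counting error only.

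Only 3 annotated gene starts lay inside a SUZ12 peak without H3K4me3, so the DNA just upstream of them shows what the starts in the set look like. They belonged to Gm36079 (250 bases upstream, chr13:120027380-120027629, minus strand), Gm40369 (chr6:47652651-47652900, plus strand) and the long non-coding RNA gene Gm5563 (chr5:119807657-119807906, minus strand). For comparison, the same stretch is given for the other start of Gm5563 (chr5:119831987-119832236, minus strand) and for the start of the heat shock gene Hspa1a (chr17:34972157-34972406, minus strand), which both lay under SUZ12 peaks with H3K4me3. The sequences are from RefSeq (build GRCm38.p6) and run 5′ to 3′ towards the start, and capitals mark each CG dinucleotide, which reads the same on both strands.
Gm36079, start inside a SUZ12 peak without H3K4me3: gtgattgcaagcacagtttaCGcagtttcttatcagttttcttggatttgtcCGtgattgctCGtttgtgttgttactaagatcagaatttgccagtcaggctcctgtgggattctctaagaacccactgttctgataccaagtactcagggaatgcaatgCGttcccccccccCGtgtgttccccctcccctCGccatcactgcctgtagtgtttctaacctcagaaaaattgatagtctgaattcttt
Gm40369, start inside a SUZ12 peak without H3K4me3: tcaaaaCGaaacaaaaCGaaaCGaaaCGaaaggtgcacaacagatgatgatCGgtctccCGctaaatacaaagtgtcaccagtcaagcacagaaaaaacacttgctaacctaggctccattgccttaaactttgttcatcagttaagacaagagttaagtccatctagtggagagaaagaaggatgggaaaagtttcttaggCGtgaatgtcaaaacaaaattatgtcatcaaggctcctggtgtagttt
Gm5563, start inside a SUZ12 peak without H3K4me3: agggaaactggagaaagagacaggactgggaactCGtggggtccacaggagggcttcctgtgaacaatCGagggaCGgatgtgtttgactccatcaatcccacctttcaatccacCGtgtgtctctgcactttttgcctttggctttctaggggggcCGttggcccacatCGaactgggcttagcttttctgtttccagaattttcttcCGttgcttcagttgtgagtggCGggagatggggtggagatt
Gm5563, start under a SUZ12 peak with H3K4me3: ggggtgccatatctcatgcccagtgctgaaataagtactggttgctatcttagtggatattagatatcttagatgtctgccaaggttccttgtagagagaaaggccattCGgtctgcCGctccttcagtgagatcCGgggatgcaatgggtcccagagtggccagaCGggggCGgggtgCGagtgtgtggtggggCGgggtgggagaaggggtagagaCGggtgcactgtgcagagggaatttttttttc
Hspa1a, start under a SUZ12 peak with H3K4me3: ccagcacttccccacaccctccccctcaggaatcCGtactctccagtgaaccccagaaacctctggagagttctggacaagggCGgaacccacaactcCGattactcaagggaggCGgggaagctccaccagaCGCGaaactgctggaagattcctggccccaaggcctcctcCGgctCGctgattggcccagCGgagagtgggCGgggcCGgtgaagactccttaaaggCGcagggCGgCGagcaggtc
The stretches upstream of the 3 starts inside the set, which reach partly beyond the SUZ12 peak at Gm40369, held 6 (Gm36079), 7 (Gm40369) and 8 (Gm5563) CG dinucleotides. The second Gm5563 start, under H3K4me3, held 8 as well, and the Hspa1a start held 14. Across 4124 starts under SUZ12 peaks with H3K4me3 the median was 17 (quartiles 10 and 25), and across all 32851 listed starts it was 6 (quartiles 2 and 16). The stretches held at least 1 CG in 3 of 3 starts of the set, in 99.7% of the starts under SUZ12 peaks with H3K4me3 and in 92.1% of all starts. All 3 starts of the set thus had fewer CG dinucleotides than the lower quartile of starts under SUZ12 and H3K4me3, and 3 starts are too few to go further. None of the 2743 listed mature or hairpin miRNAs lay within 2500 bp of a peak of the set.

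SUZ12 strength was read from the fold enrichment that the peak caller gave each peak. Because strength comes from the list that also defined the set, it is given as a description. Fold enrichment at the peaks without H3K4me3 ranged between 1.63 and 30.1 with a median of 3.75, and peaks with H3K4me3 had a median of 14.3. Ranked from strongest to weakest, the set occupied ranks 1528 to 6298 of 6298, with a median rank of 6047, which is the 3.99th percentile. The list was also cut into 10 groups of equal size by fold enrichment, called deciles here. The weakest decile (fold enrichment up to 5.11) held 204 of the 324 peaks, which made up 32.4% of it, and the 2 strongest deciles held none. Peaks of the set were also narrow, with a median width of 434 bp against 2272 bp for peaks with H3K4me3, although single peaks spanned up to 11693 bp. A q-value above 0.05 was deposited for 32 of the 324 peaks (9.88%, interval 7.08 to 13.6), against 13 of 5974 peaks with H3K4me3 (0.218%) and 0.715% of all WT SUZ12 peaks.

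**Figure D1:**
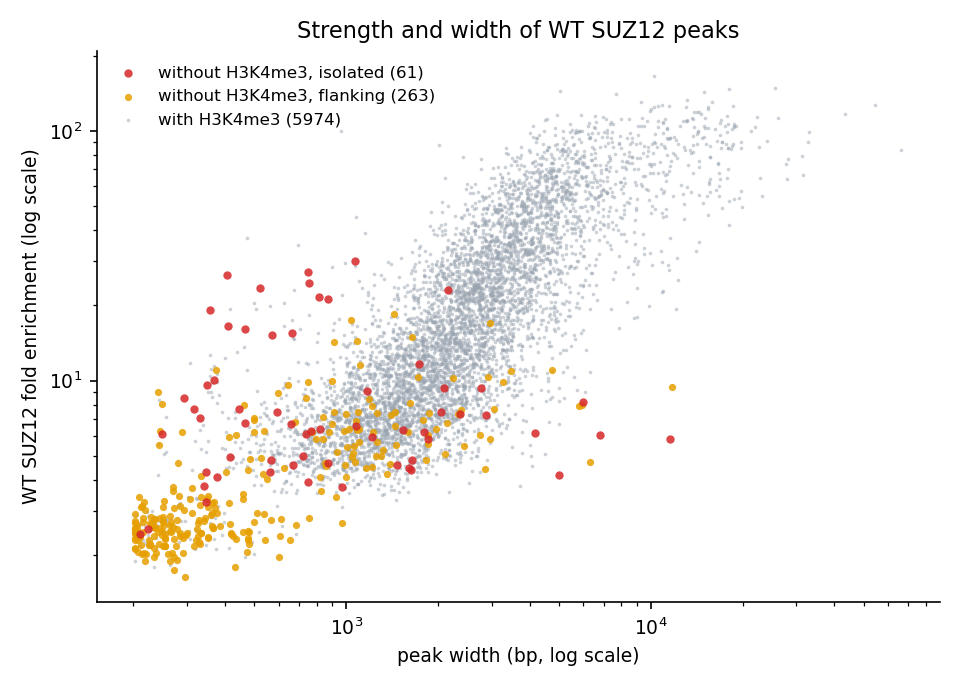
Fold enrichment (vertical, log scale) against width in bp (horizontal, log scale) of every WT SUZ12 peak, with isolated peaks without H3K4me3 in red, flanking ones in orange and peaks with H3K4me3 in grey. The 263 flanking peaks gather at low strength (median 3.04) and small width (median 367 bp), whereas several of the 61 isolated peaks are narrow yet strong, up to 30.1.

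The edge of the set was not sharp. The 5 peaks closest to an H3K4me3 peak without touching it stood 6 to 23 bp away and had fold enrichments between 2.22 and 2.6. They included peaks at Frmd6 (12 bp), Rassf2 (20 bp) and Dbn1 (23 bp). On the other side, the 5 peaks with the smallest overlap shared 1 to 34 bp with H3K4me3 and had fold enrichments between 2.46 and 2.82, as at Rgs8 (1 bp), Kif21b (6 bp) and Ccnjl (21 bp). In total, 19 peaks of the set lay within 100 bp of H3K4me3 and 207 within 1000 bp, the median distance being 612 bp and the largest 188399 bp.

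Most of the set sat beside SUZ12 sites that did carry H3K4me3. A SUZ12 peak with H3K4me3 lay within 1000 bp of 263 of the 324 peaks (81.2%, interval 76.6 to 85.1), against 10.9% of the peaks with H3K4me3 and 14.5% of all WT SUZ12 peaks. These 263 peaks are called flanking here, and the other 61 isolated. The flanking peaks were separated from their neighbour by a median of 126 bp (69 to 990 bp). In 258 of 263 cases the neighbour was the stronger peak, with a median fold enrichment of 24.2 against 3.04 for the flanking peak itself, and 11 neighbours were among the 100 strongest WT peaks. The nearest H3K4me3 peak was farther away than the neighbouring SUZ12 peak at 232 of the 263 flanking peaks. The 61 isolated peaks were stronger, with a median fold enrichment of 6.57 (2.44 to 30.1), a median width of 752 bp and a median distance of 9873 bp from H3K4me3.

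**Figure D2:**
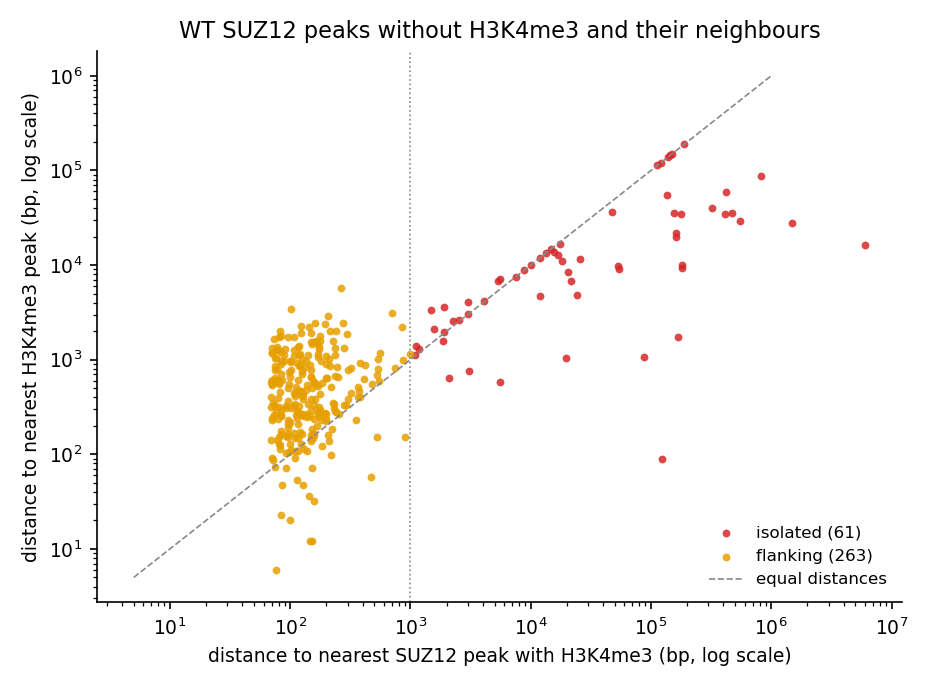
Distance in bp of each of the 324 peaks to the nearest H3K4me3 peak (vertical, log scale) against its distance to the nearest SUZ12 peak with H3K4me3 (horizontal, log scale), with isolated peaks in red and flanking peaks in orange. The dotted line marks 1000 bp, and 232 of the 263 flanking peaks lie above the dashed line of equal distances.

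The set was less often at gene starts than the rest of the list. A protein-coding gene start lay within 2500 bp of 153 of the 324 peaks (47.2%, interval 41.9 to 52.7), against 72.5% of peaks with H3K4me3 and 71.2% of all WT SUZ12 peaks. A further 77 peaks (23.8%, against 15.4% of all) lay inside protein-coding genes away from starts, and 94 (29.0%, against 13.4% of all) lay outside them. Being near a start rarely meant covering it. Among 115 peaks of the set near a start of known strand, 2 covered the start (1.74%, interval 0.478 to 6.12), 53 lay upstream and 60 downstream of it. Of the peaks with H3K4me3 near such a start, 87.5% covered it, and 84.6% of all WT SUZ12 peaks did. The rule left out peaks touching H3K4me3, which marks gene starts, and peaks of the set were narrower (median 434 against 2272 bp). The contrasts at starts are thus not independent of the rule and of width, and are given as a description. Flanking peaks were near a start in 140 of 263 cases (53.2%), and isolated peaks in 13 of 61 (21.3%), with 31 isolated peaks (50.8%) outside protein-coding genes. Members were found on all 20 chromosomes with WT SUZ12 peaks, from 2.76% of the SUZ12 peaks of chromosome 7 to 9.63% of those of chromosome 13.

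The set carried H3K27me3 about as often as the rest of the list. The original H3K27me3 list overlapped 176 of the 324 peaks (54.3%, interval 48.9 to 59.7), against 60.1% of peaks with H3K4me3 and 59.8% of all WT SUZ12 peaks. The rescue list overlapped 247 peaks (76.2%, interval 71.3 to 80.5), against 78.5% of all. It is the broader list, covering 930 Mb of the genome against 363 Mb for the original list. At least 1 list overlapped 285 peaks (88.0%, against 88.8% of all), both lists overlapped 138 (42.6%, against 49.5%), and neither overlapped 39 (12%, against 11.2%). Where the mark was present it usually covered the whole SUZ12 peak, at 163 of 176 peaks of the set in the original list, against 3356 of 3591 peaks with H3K4me3, and at 240 of 247 in the rescue list, against 4497 of 4696. Among isolated peaks this was so at 22 of 32 in the original list and 45 of 51 in the rescue list. In the original list, 52.5% (40.2 to 64.5) of isolated and 54.8% (48.7 to 60.7) of flanking peaks carried it, with overlapping intervals. The difference between the set and peaks with H3K4me3 in the original list (-5.79 percentage points) turned to 0.822 points when peaks were compared within 20 groups of like width.

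H3K27ac was nearly absent. It overlapped 1 of the 324 peaks (0.309%, interval 0.0545 to 1.73), against 25.1% of peaks with H3K4me3 and 23.8% of all WT SUZ12 peaks. The exception was an isolated peak inside Gsg1l, which encodes an auxiliary subunit of AMPA receptors. Within the weakest decile of SUZ12 strength, H3K27ac was at 0 of 204 peaks of the set (interval up to 1.85%) and at 153 of 426 peaks with H3K4me3 (35.9%, interval 31.5 to 40.6). Even within 1000 bp, H3K27ac was found for 12 peaks of the set (3.7%), against 29.0% of all. Of the 1499 WT SUZ12 peaks with H3K27ac, 1498 also overlapped H3K4me3, and the rule left out such peaks. The H3K27ac contrasts, also within a decile, are thus not independent of the rule and are given as a description.

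H3K9me3 was infrequent overall. The original list overlapped 12 peaks of the set (3.7%, interval 2.13 to 6.36), against 1.89% of all WT SUZ12 peaks, and the rescue list 23 (7.1%, interval 4.78 to 10.4), against 6.13% of all. In the rescue list it was at 15 of 61 isolated peaks (24.6%, interval 15.5 to 36.7) and 8 of 263 flanking peaks (3.04%, interval 1.55 to 5.89). The rescue list covers 465 Mb of the genome, against 199 Mb for the original list. Isolated peaks were also wider than flanking ones (median 752 against 367 bp), and this contrast was not adjusted for width. The original list marked 6 isolated peaks (9.84%, interval 4.59 to 19.8) and 6 flanking peaks (2.28%, interval 1.05 to 4.89), with overlapping intervals. In the original list the difference between the set and peaks with H3K4me3 (1.91 points) turned to -0.581 within 20 groups of like width. Both lists marked 10 peaks of the set, 5 of them isolated, as at Bhmg1, Ces1h and Pcdha6, a clustered protocadherin that serves as a cell surface label of neurons.

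The rescue experiment measured H3K4me3 in WT chromatin that the rule had not used. It placed H3K4me3 on 51 of the 324 peaks (15.7%, interval 12.2 to 20.1), against 99.9% of the peaks with H3K4me3 in the original list and 95.6% of all. The remaining 273 peaks lacked it in both experiments. Where rescue H3K4me3 touched the set, it shared a median of 213 bp with the SUZ12 peak, against 1610 bp at peaks with H3K4me3, and its own fold enrichment had a median of 15.1 against 49.6. Of the 10 strongest peaks that lacked H3K4me3 in both experiments, 9 were isolated and 1 was flanking, a peak near Sp8.

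**Figure D3:**
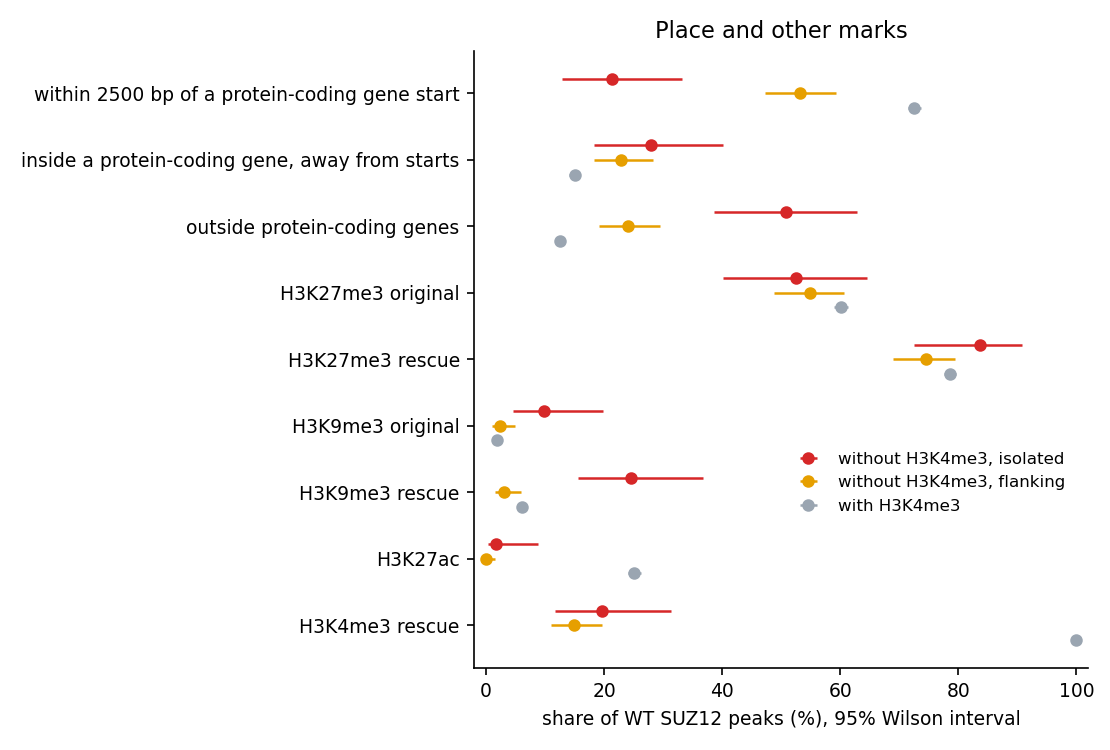
Share in percent of WT SUZ12 peaks with each feature (rows), for 61 isolated peaks without H3K4me3 (red), 263 flanking ones (orange) and 5974 peaks with H3K4me3 (grey), with 95% Wilson intervals as bars. H3K27me3 is carried at similar shares by the 3 sets, while H3K27ac and rescue H3K4me3 are at 25.1% and 99.9% of peaks with H3K4me3 and far lower in the others. The rule left out peaks with original H3K4me3, so the H3K27ac and rescue H3K4me3 contrasts are not independent of it.

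The set was found less often in MCM2-2A cells than other WT peaks. A SUZ12 peak of clone 439 overlapped 209 of the 324 peaks (64.5%, interval 59.2 to 69.5), against 94.0% of peaks with H3K4me3 and 92.5% of all WT SUZ12 peaks. Clone 442 had a peak at 224 (69.1%, interval 63.9 to 73.9), against 94.7% of peaks with H3K4me3 and 93.4% of all. Both clones had one at 173 (53.4%, interval 48.0 to 58.8), against 91.2% of peaks with H3K4me3 and 89.3% of all, and neither did at 64 (19.8%, interval 15.8 to 24.4), against 2.49% and 3.38%. The clones differed from each other as well, since 36 peaks were found in clone 439 but not 442 and 51 in clone 442 but not 439. These shares hung on how much overlap was asked for. The share found in both clones was 18.5% with a reciprocal overlap of 50% and 91.4% when a mutant peak within 1000 bp was counted. The latter count can be met by the mutant peak of a neighbour. A SUZ12 peak with H3K4me3 lay within 1000 bp of 263 of the 324 peaks, so 91.4% does not show presence of the peaks themselves.

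WT strength moved with this difference. In the weakest decile, 92 of 204 peaks of the set were found in both clones (45.1%, interval 38.4 to 52.0), against 215 of 426 peaks with H3K4me3 (50.5%, interval 45.7 to 55.2), and these intervals overlap. In the second decile 22 of 44 (interval 35.8 to 64.2%) stood against 65.9% (61.9 to 69.6) of 586, and in the third 63.6% (46.6 to 77.8) of 33 against 86.9% (84.0 to 89.4) of 597, where the intervals lie apart. Above that, few peaks of the set remained. In decile 4, 16 of 19 (84.2%, 62.4 to 94.5) stood against 97.0% (95.4 to 98.1), and in decile 6, 8 of 9 (88.9%, 56.5 to 98.0) against 99.7% (98.8 to 99.9), again with the intervals apart. In decile 5, 4 of 5 (37.6 to 96.4%) stood against 98.7% (97.5 to 99.4), where the intervals also lie apart. In deciles 7 and 8 all 10 peaks of the set were found in both clones. Most of these 10 lay in the chromosome 13 run or the 5S rRNA region described below. The peak missing in decile 6 was the one near Sp8, also described below. Peaks of a single locus are not independent, so the intervals by decile are no test. Averaged over deciles with the weights of the set, the difference between the set and peaks with H3K4me3 was -9.23 percentage points, against -37.8 points without regard to strength. The deficit was smaller among peaks of like strength, and with 1 list per clone it was not tested.

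**Figure D4:**
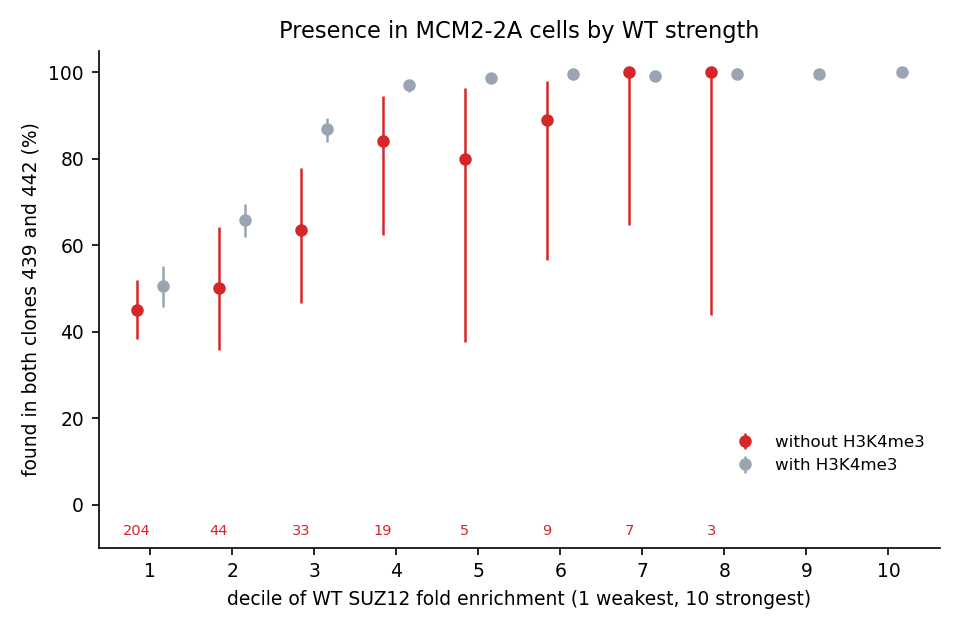
Share in percent of WT SUZ12 peaks found in both MCM2-2A clones (vertical) in each decile of WT fold enrichment (horizontal, 1 weakest), for peaks without H3K4me3 (red) and with H3K4me3 (grey), with 95% Wilson intervals and the number of peaks without H3K4me3 below. In the weakest decile the shares are 45.1% and 50.5%, and no peak of the set falls in the 2 strongest deciles.

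At many flanking sites the mutant lists held a merged peak. Of the 209 peaks found in clone 439, 118 were covered by a mutant peak that also covered a WT peak with H3K4me3 (called merged here), and in clone 442 this was so for 132 of 224. All of these were flanking. A mutant peak of its own, apart from any WT peak with H3K4me3, was present at 69 of the 324 peaks in both clones, 38 of them isolated and 31 flanking. The fold enrichment of a merged peak belongs to the whole domain, and the values must be read so. The 10 peaks of the set with the best mean rank in the mutant lists were all merged ones. One lay in Dlx6os1 in the Dlx5 and Dlx6 domain of forebrain and limb genes, with 80.7 in clone 439 and 79.1 in clone 442, against 4.7 in WT for the flanking peak alone. Others lay near Wnt1 (57.3 and 62.0, against 2.35), a midbrain ligand, Otp (72.9 and 40.3, against 2.18), a hypothalamic homeobox gene, and Frzb (57.4 and 46.5, against 2.63), a secreted Wnt antagonist. No isolated peak lay in a merged peak of this kind, but isolated peaks could share a mutant peak with each other, as the pair at Gm13271 below did. A shared mutant peak was counted for each of them. For the 38 isolated peaks found in both clones, the median fold enrichment was 8.28 in clone 439 and 8.47 in clone 442, against 8.79 in WT. Of these 38, 9 lay in the chromosome 13 run and 4 in the 5S rRNA region described below. They are thus not all independent sites. Because read depth is unknown, the place of these peaks within each list is given too. The median percentile was 33.0 in clone 439 and 38.0 in clone 442, against 33.4 in WT. Clone 439 had a higher fold enrichment than WT at 19 of the 38 peaks and clone 442 at 16. Without the same count over all WT SUZ12 peaks, which was not made, these counts show no trait of the isolated peaks.

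Flanking peaks without H3K4me3 can also be set beside flanking peaks with it, that is, the 653 peaks with H3K4me3 that lay within 1000 bp of another such peak. Found in both clones were 51.3% (interval 45.3 to 57.3) of the 263 peaks without H3K4me3 and 89.0% (86.3 to 91.2) of the 653, and their median fold enrichments were 3.04 and 13.9. In the weakest decile, 48.1% (41.0 to 55.3) of 185 flanking peaks without H3K4me3 were found in both clones, against 63.6% (53.8 to 72.4) of 99 with it, and these intervals overlap. In the second decile the shares were 46.9% (30.9 to 63.6) of 32 against 78.0% (64.8 to 87.2) of 50, with the intervals apart.

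The strongest peaks of the set included a run of 9 isolated peaks on chromosome 13 (chr13:120024537-120038852), at Gm36079 and Gm21188, which RefSeq lists as protein-coding genes. Their WT fold enrichments ran between 6.32 and 30.1 with a median of 23.1, and the strongest peak (chr13:120033398-120034464) lay 140 bp outside Gm21188. No SUZ12 peak with H3K4me3 interrupted the run, and the nearest H3K4me3 peaks were 7541 to 14918 bp away. Every peak of the run was found in both MCM2-2A lists. The strongest peak had a fold enrichment of 27.2 in clone 439 and 16.6 in clone 442, against 30.1 in WT, and the peak over the Gm36079 start, whose upstream sequence is printed above, had 25.3 and 20.8, against 27.2. Across the run, clone 439 was below WT at 7 of 9 peaks and clone 442 at 9 of 9. The run was picked for its high WT values, and its neighbouring peaks are not replicates. The same count over all WT SUZ12 peaks was not made, so no direction is read from it. None of the 9 overlapped H3K27me3 of the original experiment, all 9 were covered by H3K27me3 of the rescue experiment, and none carried H3K9me3. The sources used here do not say how reads matching several places in the genome were treated, so the positions and fold enrichments of this run, and of the RNA gene and interferon peaks described next, are uncertain where such loci have similar copies.

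Genes for small structural RNAs were another feature of the isolated peaks. An rRNA or tRNA gene lay within 2500 bp of 7 of the 324 peaks (2.16%, interval 1.05 to 4.39), against 19 of 5974 peaks with H3K4me3 (0.318%) and 0.413% of all WT SUZ12 peaks, and 6 of the 7 were isolated. This class of genes was looked at after the values had been seen. The 5S genes accounted for 4 isolated peaks, in the 5S rRNA region of chromosome 8 (chr8:123600440-123624979), where 5S rRNA, a component of the large ribosomal subunit, is encoded in many near-identical copies. H3K4me3 of the rescue experiment touched 2 of the 4, and 2 SUZ12 peaks with H3K4me3 lay within the region. Of the 7 peaks near rRNA or tRNA genes, 4 lacked H3K4me3 in both experiments. The peak 450 bp from n-R5s146 had a fold enrichment of 20.9 in clone 439 and 13.3 in clone 442, against 26.4 in WT. At the 5S pseudogene Rn5s-ps1 the values were 27.2 in clone 439 and 23.9 in clone 442, against 21.6 in WT, and at Gm22291 15.0 and 17.4, against 16.1. The order of the clones thus differed between neighbouring peaks of the region. On chromosome 1, 3 peaks of the set, 2 of them flanking, lay among tRNA genes (chr1:171069494-171085390, nearest to n-TEctc8, n-TGgcc13 and n-TGgcc14). Their WT fold enrichments were between 3.79 and 7.96, and rescue H3K4me3 touched 2 of the 3. The 7 peaks counted above held only 1 flanking peak, so at least 1 of these 3 was not among them. Another 5 peaks lay at the lncRNA gene Gm52861 and towards the Y RNA gene Rny3 on chromosome 6 (chr6:47739705-47773394), and all 5 overlapped H3K27me3 in both experiments.

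The type I interferon cluster of chromosome 4 held 4 isolated peaks, at Ifnz (interferon zeta) and the neighbouring genes Gm13272, Gm13271, Gm13286, Gm13285 and Gm13287, with no other WT SUZ12 peak near their starts. The peak 426 bp from Ifnz (chr4:88781356-88781705) had a fold enrichment of 6.72 in clone 439 and 17.1 in clone 442, against 9.62 in WT. At Gm13271 a pair of WT peaks (6.7 and 6.12) was matched by a single peak in each mutant list, with 6.25 in clone 439 and 5.21 in clone 442. At Gm13285 the values were 7.49 and 6.56, against 7.05 in WT. All 4 peaks overlapped H3K27me3 in both experiments. In all, 154 of the 4321 protein-coding genes with WT SUZ12 near the start had a peak of the set there, and only 14 of these had no other WT SUZ12 peak, the interferon cluster supplying 6 of them. The remaining 8 were Gm36079, Gm40369, Ces1h, Pcdha6, Gm38666, A530032D15Rik, Bhmg1 and Nrl, a photoreceptor transcription factor.

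A few isolated peaks were wide or far from H3K4me3. Pappa, which encodes a protease of insulin-like growth factor binding proteins, held 2 such peaks of 5993 and 4977 bp inside the gene, 113436 and 120222 bp from H3K4me3 of the original list and 51496 and 45726 bp from that of the rescue list. The first had a fold enrichment of 4.28 in clone 439 and 6.55 in clone 442, against 8.24 in WT, and the second 7.16 and 6.35, against 4.19. The lists thus ordered the clones differently at the 2 Pappa peaks. Tet3, which encodes a 5-methylcytosine oxidase, held a 6813 bp peak with 6.09 in clone 439 and 4.74 in clone 442, against 6.08 in WT. The peak farthest from original H3K4me3 (188399 bp, but 25657 bp from rescue H3K4me3) lay in a gene-poor stretch of chromosome 16 (chr16:65294574-65296308, 98124 bp from the pseudogene Gm9584) and had 12.5 in clone 439 and 11.6 in clone 442, against 11.7 in WT. An 11516 bp peak on chromosome 2 near the pseudogene Gm13991 was covered from end to end by H3K9me3 in both experiments.

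**Figure D5:**
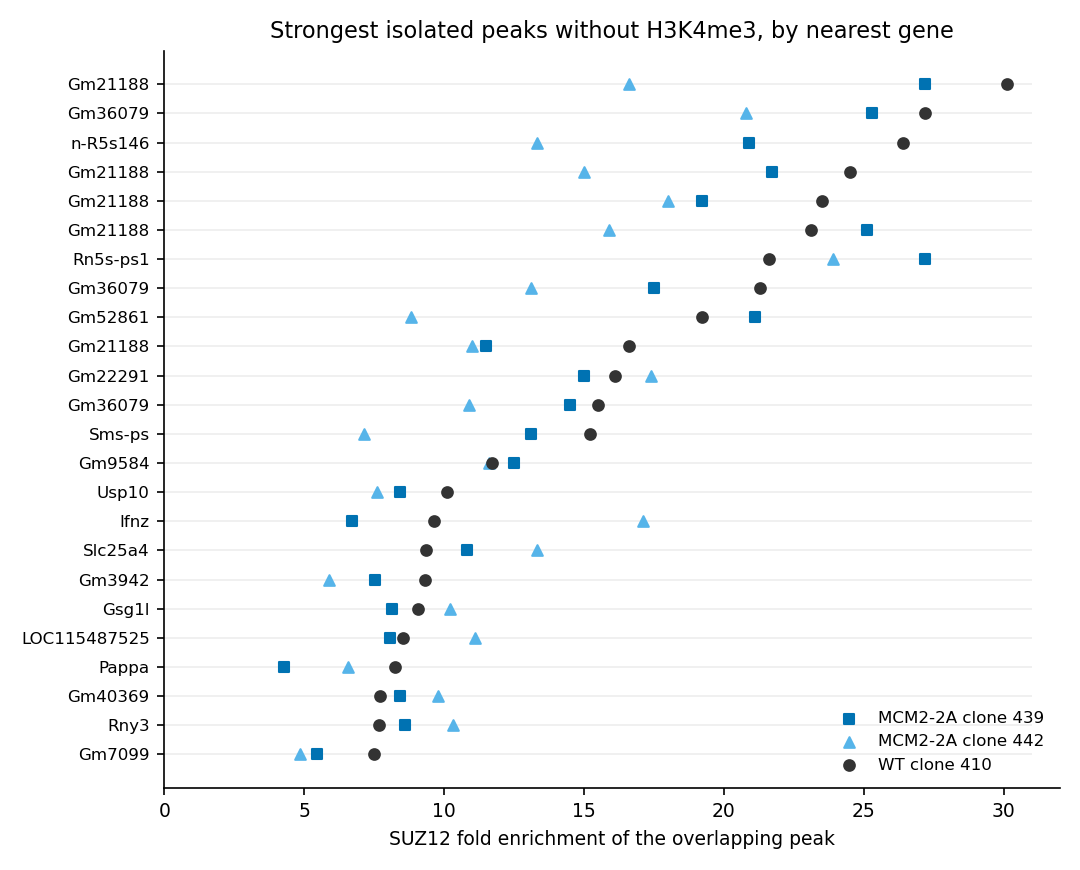
SUZ12 fold enrichment (horizontal) at the 24 isolated peaks without H3K4me3 of highest WT fold enrichment (rows, by nearest gene), in MCM2-2A clones 439 (squares) and 442 (triangles) and in WT clone 410 (circles). Each symbol is the deposited value of 1 peak in 1 list, with no replicate spread, and all 24 were found in both clones, whereas the next isolated peak by WT fold enrichment (7.47) was in neither and 38 of all 61 (62.3%) were in both.

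The strongest flanking peak lay inside Hspa1a, which encodes an inducible HSP70 chaperone and whose start, printed above, lay under a SUZ12 peak with H3K4me3. It had a fold enrichment of 15.8 in clone 439 and 14.5 in clone 442, against 18.5 in WT. Rescue H3K4me3 touched this peak, so it lacked the mark in the original experiment only. Hspa1b lies beside Hspa1a and also holds peaks of the set, so the limit on reads matching several places applies here too. Next came a peak 5094 bp from Sp8, a zinc finger regulator of limb and brain patterning, and 71 bp from a stronger SUZ12 peak. It was not found in clone 439 and had 6.17 in clone 442, against 17.5 in WT. Others with high WT values lay at Nxph1 (14.9), a ligand of neurexins, Tmem163 (14.4), which encodes a zinc transporter, and Mir124-2hg (14.3), the host gene of a neuronal miRNA. The widest peak of the set (11693 bp) lay 2463 bp from Peg12, an imprinted gene, and 161 bp from the next SUZ12 peak, with 10.9 in clone 439 and 8.48 in clone 442, against 9.41 in WT. Some flanking peaks adjoined the strongest SUZ12 peaks of the WT list, as at Neurod2 (neighbour rank 4), a neuronal differentiation factor, and Foxe1 (neighbour rank 8), a regulator of thyroid development. Neurod2, Foxe1, Gsg1l and the genes named for H3K9me3 were chosen after their values were seen, as were the interferon, chromosome 6, 5S rRNA and tRNA genes.

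Of the 20 strongest peaks of the set, 19 were found in both MCM2-2A clones, the exception being the Sp8 peak. Of the 64 peaks found in neither clone, the strongest had a WT fold enrichment of 7.47 and lay on chromosome 16 (chr16:65255970-65256561, 59520 bp from Gm9584), in the same gene-poor stretch as the peak farthest from H3K4me3, which both clones held. It was followed by a peak in Tfap2b (7.37), which encodes an AP-2 transcription factor of neural crest and kidney. Of 3 peaks of the set in Tfap2b, clone 439 had none and clone 442 had 1, at 6.6, against WT fold enrichments between 4.58 and 7.37. Further peaks found in neither clone lay next to Gm52861 (6.31), in Gm11266 (6.03), near the start of Wnt11 (5.67), a non-canonical Wnt ligand, near Dlx6 (5.54), a homeobox gene of forebrain and jaw, at Gpr50 (5.45), an orphan receptor related to melatonin receptors, and near Gm28590 (6.12), Gm26416 (6.22) and 4930435F18Rik (5.93).

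Among lists of genes by function, few of those with SUZ12 had a peak of the set near the start. Of all protein-coding genes with WT SUZ12 near the start, 154 of 4321 did. This was so for 2 of 38 Hox genes (Hoxa4 and Hoxc13), 3 of 41 neural regulators (En2, Pax2 and Dlx6), 1 of 32 mesoderm regulators (Tbx1), 1 of 19 endoderm regulators (Prox1), 3 of 35 secreted ligands (Bmp7, Wnt11 and Wnt1), 1 of 20 lineage priming genes (Dnmt3a), 1 of 7 germline genes (Tdrd1), 1 of 51 protocadherins (Pcdha6), 1 of 46 Zfp genes (Zfp697) and 2 of 104 solute carriers (Slc35f3 and Slc9a3). All of these except Pcdha6 also had another WT SUZ12 peak near the start. The flanking peak of En2, a regulator of the midbrain and hindbrain, was not found in clone 439 and had 10.7 in clone 442, against 10.3 in WT. The Hoxa4 peak lay in Hoxa3 and was part of a merged peak in both clones, with 58.9 in clone 439 and 28.7 in clone 442, against 7.89 in WT for the peak alone. Among 2-cell-like genes with SUZ12, 1 of 2 (Duxf3, of the Dux family, where reads may match several places) had a peak of the set. None of 4 pluripotency, 21 imprinted, 14 trophoblast, 37 ion channel and synapse, 7 Polycomb subunit, 5 ribosomal protein, 3 olfactory receptor or 21 collagen genes with SUZ12 did, nor did 1 Rhox gene and 1 H3K4 enzyme gene.

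The MCM2-2A lists held sets of about the same relative size. Without WT H3K4me3 were 392 of 7571 SUZ12 peaks of clone 439 (5.18%) and 412 of 7840 of clone 442 (5.26%), against 324 of 6298 (5.14%) in WT. Of these, 246 in clone 439 and 249 in clone 442 overlapped no WT SUZ12 peak. H3K4me3 was that of WT cells throughout, and H3K4me3 of the mutant clones was not analysed here. Peaks without WT H3K4me3 that both clones shared and WT lacked numbered 79 in the list of clone 439 and 72 in that of clone 442.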

How the data were processed

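Peak lists (10, from 26 of the 136 samples) were used as deposited. Per the labels, the tools were MACS2 2.1.0, Picard 2.20.7, BWA 0.7.15 and cutadapt 2.5 with build mm10, in roles not stated. For caller settings and multi-mapping reads, no treatment is given in the sources used. The authors gave each SUZ12, H3K4me3 and H3K27ac peak a score, a fold enrichment (a ratio, used as strength) and −log10 p and q, of which only the −log10 q-value was used. The lowest deposited score of the SUZ12 lists, an irreproducible discovery rate output, was 540. The 4 unnamed score columns of the broad H3K27me3 and H3K9me3 lists were not used. Replicates were combined by the authors and read depth is unknown.

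Overlap meant at least 1 bp, and positions count from 1. Genes and starts came from RefSeq (GRCm38.p6, the same build). Starts with strand were listed for 79.9% of 21900 protein-coding genes, and either gene end was used otherwise. Strength groups were deciles of WT fold enrichment. Python 3.11.15, pandas 2.3.3, NumPy 2.4.6, SciPy 1.17.1 and matplotlib 3.10.9 were used, and overlap code was tested on simulated intervals. No test was run, as each clone has 1 list. The members, gene lists and the rule for named sites were chosen with earlier results of these data known. That rule took the members strongest in WT (20), of best mean mutant rank (10), in neither mutant list (10), without rescue H3K4me3 (10), widest (5), farthest from and nearest to H3K4me3 (5 each), and up to 4 genes per list. Alternatives are given in the closing section.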

Additional observations from a re-analysis of the deposited data

How the results depend on the processing

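No paired analysis was possible because each list combines the replicates of a clone, which also left no replicate to leave out. Of 90 alternatives over 17 results, 51 stayed close to the value given (shares within its 95% interval, differences within the margin of the interval of the set's share, the number of peaks and the percentile within 1.5 times), 37 moved further and 2 changed sign. The size of the set was 117 peaks when H3K4me3 within 1000 bp counted as overlap (median strength percentile 13.7), 787 when only the middle base had to lack H3K4me3, and 19 among SUZ12 peaks at or above the median fold enrichment.

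A reciprocal overlap of 50% gave 26.2% found in clone 439, 25% in clone 442, 18.5% in both and 67.3% in neither. Counting a peak within 1000 bp, which the peak of a neighbour can meet at flanking members, gave 94.4%, 92.6%, 91.4% and 4.32%. Equal numbers of strongest peaks gave 58.0%, 61.1%, 45.7% and 26.5%. Counting only a mutant peak of its own, an alternative chosen after seeing the data, gave 28.1%, 28.4%, 21.3% and 64.8%. Isolated members alone, also chosen after seeing the data, gave 73.8% in clone 439, 62.3% in both, 9.84% with H3K9me3 and 21.3% near a gene start. The chromosome 13 run supplied 9 of the isolated members and the 5S rRNA region 4, all found in both clones.

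The share with H3K27me3 was 76.2% and that with H3K9me3 7.1% on the rescue lists. At the middle base, H3K27ac was at 0.0% (0 of 324, which allows up to 0.926%) and rescue H3K4me3 at 6.48%. Windows of 1000 and 10000 bp put 14.2% and 71.0% near a gene start. Set minus peaks with H3K4me3, the difference in the share found in both clones was -17.7 points within 4 groups of strength, -9.23 within 10 and -10.4 within 20 (-37.8 overall), and that in the share found in neither was 10.9, 5.19 and 3.28 (17.3 overall). The H3K27ac difference was -26.1 points within 4 groups of width (-24.8 overall). Within 20 groups of width, chosen after seeing the data like the 10 and 20 groups of strength, the H3K27me3 difference was 0.822 points (-5.79 overall) and the H3K9me3 difference -0.581 (1.91 overall), both reversed. The cause of these shifts was not tested beyond what each setting changes by construction. Depth is unknown, so a site missing from a list was not detected there and cannot be called unbound.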
